A study of Homo sapiens with 12 samples.

Results

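The genes described are 10 members of the NOTCH pathway, chosen by name from a list given for this work. The choice was made with earlier results of these data known. They are the 4 receptors NOTCH1, NOTCH2, NOTCH3 and NOTCH4, the 3 ligands JAG1, JAG2 and DLL1, and the 3 target genes HES1, HEY1 and HEYL. All 10 were found among the 58830 entries of the expression table, and all 10 passed the filter on low values. That filter required 3 or more of the 12 libraries to reach a value of 10, and 20456 genes met it. DLL1 passed it only through the TGFβ libraries and a single untreated library of the edited line.

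NOTCH signalling passes between cells that touch. A JAG or DLL ligand on one cell binds a NOTCH receptor on its neighbour. ADAM proteases and then γ-secretase cleave the receptor, and the freed intracellular part enters the nucleus, where it joins the DNA-binding protein RBPJ and MAML coactivators. HES and HEY genes, which encode transcriptional repressors, are the classical targets. In airway epithelium the pathway is known for its part in choosing between secretory and ciliated cell fates, and JAG1 and HEY1 are known as genes that TGFβ can induce in epithelial cells.

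RNA-seq was done on A549, a human line derived from a lung adenocarcinoma with epithelial features. Wild-type A549 was compared with a derivative that the labels call miR22/SNAI1 target site KO, in which the site in SNAI1 for the microRNA miR-22 was disrupted. This derivative is called the edited line here. Both lines were grown with or without TGFβ at 10 ng/mL, a factor that drives epithelial cells toward a mesenchymal state, and all cells were collected on day 5. Each of the 4 groups had 3 libraries that the labels name biological repeats. The p-values thus rest on how much those repeats vary. Only 1 edited line was profiled, so the effect of the edit and that of deriving a line cannot be told apart.

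The libraries held 84210775 to 111141708 counted reads. The values are normalized counts, that is, reads per gene divided by a factor for each library. The 8 epithelial markers fixed for A549 (EPCAM, CDH1, KRT7, KRT8, KRT18, KRT19, AKR1B10 and ALDH1A1) were above 0 in every group, with a summed level of 1575999.9 to 2237405.2 across libraries. SNAI1 had normalized counts of 496 ± 88.6 and 875 ± 97.2 (SD, n = 3) in untreated and TGFβ-treated wild type, and 481 ± 43.4 and 1313 ± 96.5 in the edited line. The edit removes a site for a microRNA, which need not change SNAI1 reads, so SNAI1 does not check the labels. No pair of libraries held the same reads. Endothelial markers (8 genes) summed to 45.1 to 199 and leukocyte markers (8 genes) to 74.0 to 157 over all libraries.

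The promoters of HES1 and HEYL are shown because they are the members whose start regions hold the core of the RBPJ site, TGGGAA, the sequence through which NOTCH acts on DNA. Promoters from RefSeq (GRCh38.p14, 250 bases before to 50 bases after a gene's start) were matched for 8 of the 10 members. TGGGAA, searched on both strands, was present in 24.0% of all 35116 promoters of that length and in those of HES1 and HEYL among the 8 members. The HES1 stretch lies at chr3:194135898-194136144 on the plus strand and ends at the base before the annotated gene start. Capitals mark TGGGAA, whose first bases lie 84 and 70 bases before the RefSeq start.
HES1: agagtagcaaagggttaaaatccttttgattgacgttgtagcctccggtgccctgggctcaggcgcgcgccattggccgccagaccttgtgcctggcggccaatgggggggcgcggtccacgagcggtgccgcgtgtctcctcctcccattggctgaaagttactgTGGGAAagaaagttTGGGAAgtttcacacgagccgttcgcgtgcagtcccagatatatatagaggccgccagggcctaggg

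In HEYL the matches began 178 and 99 bases before the RefSeq start, on opposite strands, and are shown with 12 bases on each side. They lie at chr1:39639804-39639833 and chr1:39639725-39639754, both printed along the minus strand on which HEYL is transcribed. TTCCCA in capitals is TGGGAA read on the other strand.
HEYL far match: ccgcctagggccTTCCCAcggctcggcggc
HEYL near match: aggaaagggcccTGGGAAagggcggtggcg

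A second motif, CAGGTG, is an E-box form that SNAI and ZEB repressors bind. It was found in the promoters of NOTCH4 and JAG2 (1 match each) and in 20.6% of all promoters. CACGNG, a class of site for HES and HEY repressors, had 4 matches in the HES1 promoter, 2 in that of JAG2 and 1 each in those of NOTCH2, NOTCH3 and JAG1. It was found in 30.5% of all promoters. In these promoters no match of one motif shared bases with a match of another. These matches describe letters in a window and say nothing about binding.

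To compare levels between genes, normalized counts were divided by the length of all exons of a gene in kb (GENCODE 29 on GRCh38). JAG1 had the highest level per kb of the 10 members in every group, from 4281 ± 72.0 (untreated edited line) to 7325 ± 321 (edited line with TGFβ). HES1 was second in every group, with levels per kb of 2540 ± 216 to 3421 ± 76.1. By these lengths NOTCH3 came next without TGFβ and NOTCH2 came next with it, in both lines. By the length of the longest transcript, NOTCH2 lay above NOTCH3 in the untreated edited line. NOTCH4 and DLL1 were the lowest in every group, at or below 12.2 ± 1.49 per kb. Most neighbours in the order did not overlap in their libraries. The exceptions were NOTCH4 and DLL1 in both untreated groups, HEYL and NOTCH3 in wild type with TGFβ, and JAG2 and HEY1 in both TGFβ groups.

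**Figure D1:**
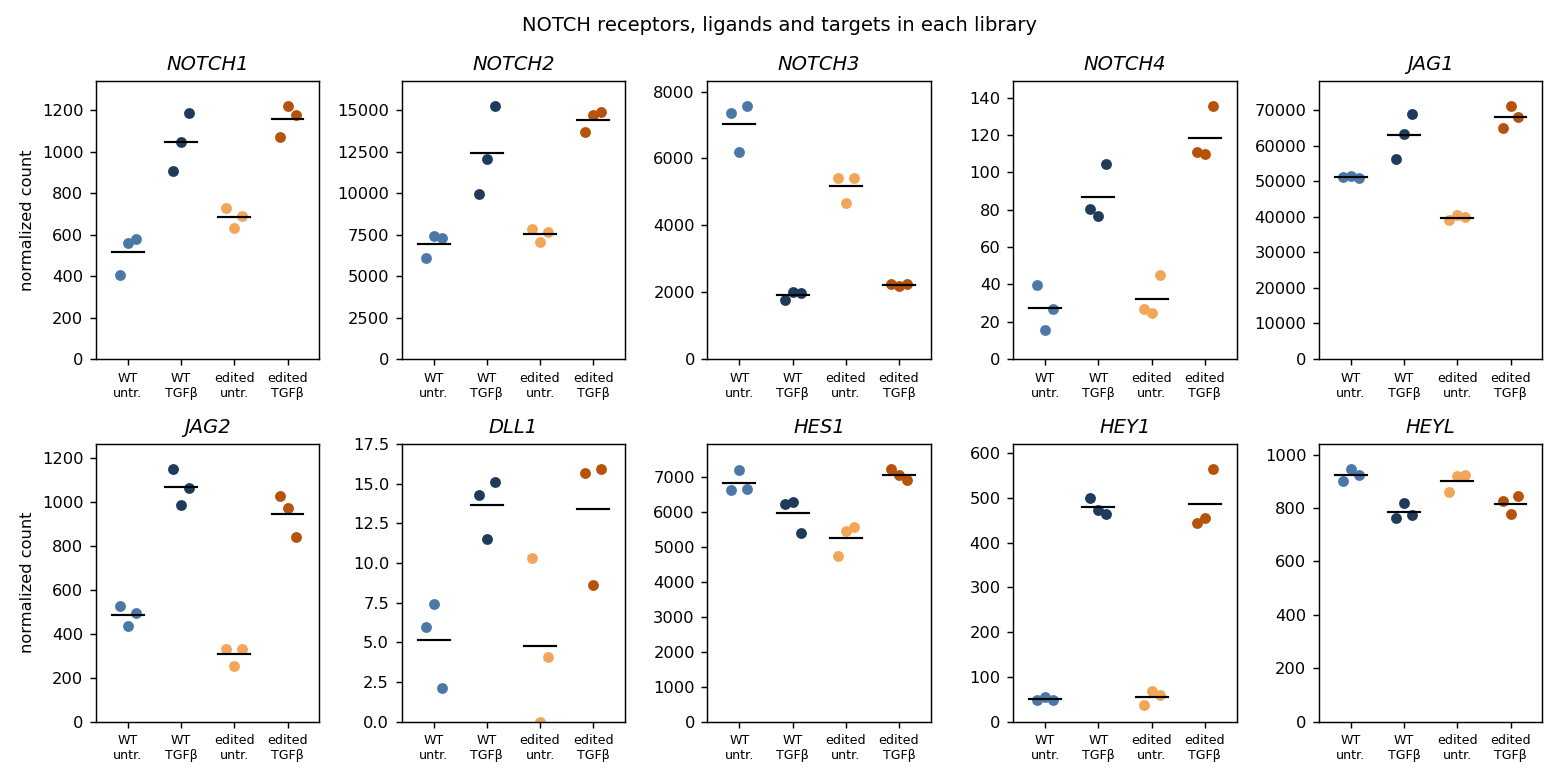
Normalized count (linear axis from 0) of each of the 10 NOTCH genes in all 12 libraries; each dot is a library, the bars are means of 3 libraries, and the groups are wild type (WT) and the edited line, untreated (untr.) or with TGFβ. HEY1 lies between 38.2 and 67.6 without TGFβ and between 443 and 564 with it, NOTCH3 lies lower with TGFβ in both lines, and HES1 is lowest in the untreated edited line.

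The first question was how TGFβ changed these genes in wild-type cells. Of the 10 members, 6 rose and 3 fell. Among all genes tested, 30.8% rose and 30.9% fell in that comparison, so a change with TGFβ was common in this dataset. HEY1 had the largest rise of the members, NOTCH3 was the only receptor that fell, and NOTCH1, NOTCH2, NOTCH4, JAG1 and JAG2 rose. In the edited line 8 members rose and 1 fell, against 32.1% and 30.7% of all genes tested. The 8 include DLL1, which entered the tests mainly through its TGFβ libraries, and 7 rose when it is set aside. The median log2 fold change of the 10 members was 0.93 in wild type and 0.86 in the edited line, and over all genes tested it was 0.02 and 0.03. With DLL1 set aside, the middle value of the members was 0.82 (NOTCH2) in wild type and 0.77 (JAG1) in the edited line.

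NOTCH3 (ENSG00000074181.8 in GENCODE 29, chr19:15159038-15200981, minus strand) encodes a receptor best known from vascular smooth muscle and pericytes and also present in lung epithelium and lung tumours. Its normalized counts in untreated wild type were 7347, 6201 and 7561, and with TGFβ they were 1752, 2017 and 1968. Edited cells held 5425, 4674 and 5428 without TGFβ and 2244, 2185 and 2255 with it. Every TGFβ library lay below every untreated library of either line. NOTCH3 fell by 1.88 ± 0.08 on the log2 scale in wild type (adjusted p = 1e-11) and by 1.21 ± 0.08 in edited cells (adjusted p = 2.2e-09). In bulk RNA, fewer cells that express a gene and less RNA of it per cell cannot be told apart.

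NOTCH2 (chr1:119911553-120069626, minus strand) encodes the receptor with the most RNA in TGFβ-treated cells. Wild-type libraries held normalized counts of 6107, 7421 and 7334 without TGFβ and 9946, 12063 and 15252 with it. The edited libraries gave 7871, 7076 and 7661 without TGFβ and 13672, 14724 and 14907 with it. The wild-type TGFβ libraries were the most spread, and the treated and untreated libraries did not overlap in either line. NOTCH2 rose in wild type (log2 fold change 0.82 ± 0.12, adjusted p = 1.2e-05) and in the edited line (0.94 ± 0.12, adjusted p = 2.5e-06). NOTCH2 has near copies in the genome, so part of its reads could be shared with them. The NOTCH2NL entry held normalized counts of 39.6 to 138, and the NOTCH2P1 entry was listed at 0 in every library.

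NOTCH1 (chr9:136494433-136545786, minus strand), the receptor most studied in T cell leukaemia, was at a lower level. Wild-type cells gave normalized counts of 407, 560 and 578 without TGFβ and 906, 1047 and 1188 with it. Libraries of the edited line read 727, 631 and 691 without TGFβ and 1073, 1219 and 1177 with it. Treated libraries lay above untreated ones in both lines, and the mean was 2.03-fold higher in wild type and 1.69-fold higher in the edited line. NOTCH1 rose in both comparisons (log2 fold changes 1.03 ± 0.13 and 0.76 ± 0.13, adjusted p = 3.4e-06 and 8.3e-05).

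NOTCH4 (chr6:32194843-32224067, minus strand), a receptor described mainly in endothelium, was close to the floor of detection. In wild type its normalized counts were 39.9, 15.7 and 26.9 without TGFβ and 80.2, 76.7 and 104 with it. Edited cells had 26.8, 24.7 and 45.0 without TGFβ and 111, 110 and 135 with it. No treated library overlapped an untreated one of the same line, although each value stands for only 19 to 124 reads. NOTCH4 rose in wild type (1.71 ± 0.32, adjusted p = 0.00022) and in the edited line (1.89 ± 0.32, adjusted p = 7.7e-05). Endothelial markers moved in both directions, and 3 of the 8 were tested. TEK was at 0 in all untreated wild-type libraries, and had a lowest value of 10.5 and a median of 31.9 with TGFβ. In the edited line it was at 0.688 ± 1.19 without and 31.7 ± 13.9 with TGFβ. PECAM1, which carried most of the summed level of the list without TGFβ, was at 104 ± 10.5 and 1.76 ± 1.69 in wild type. TEK reached the filter value of 10 only in TGFβ libraries and PECAM1 only in untreated ones. Each thus entered the tests only through the condition where it is high, so no p-value is given for them. The summed level of the 8 genes was 115 to 160 without and 45.1 to 87.4 with TGFβ in wild type, and TIE1 was listed at 0 in untreated wild type. The part of these markers in the NOTCH4 values was not tested. The sum in the edited line was 147 to 199 without and 49.1 to 73.2 with TGFβ. NOTCH4 overlaps GPSM3 by 681 bases on the same strand (mean normalized count of GPSM3 27.2), so reads in that stretch are uncertain.

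As a share of the summed receptor level per kb, NOTCH3 made up 61.6% ± 4.38 (SD, n = 3) in untreated wild type and 19.6% ± 2.41 with TGFβ. NOTCH2 made up 34.1% ± 3.82 and 69.9% ± 2.80 in the same groups. In the edited line NOTCH3 went from 51.5% ± 0.816 to 19.5% ± 0.881 and NOTCH2 from 42.0% ± 0.818 to 70.4% ± 0.610. By these lengths the receptor with the largest share thus differed between untreated and treated cells of both lines. NOTCH1 held 4.08% ± 0.706 and 9.63% ± 0.387 in wild type and 6.16% ± 0.124 and 9.13% ± 0.325 in the edited line, and NOTCH4 stayed at or below 0.997% ± 0.100 in every group. Without a length correction NOTCH2 and NOTCH3 held 47.8% and 48.4% in untreated wild type and 56.2% and 38.5% in the untreated edited line. By the length of the longest transcript they held 41.2% and 54.8% in untreated wild type and 49.5% and 44.6% in the untreated edited line. Which of them leads in the untreated edited line thus depends on the lengths used. In untreated wild type NOTCH3 had the larger mean by each measure. Without a length correction that lead was small, and NOTCH2 led in replicate 2 (52.3% and 43.7%).

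**Figure D2:**
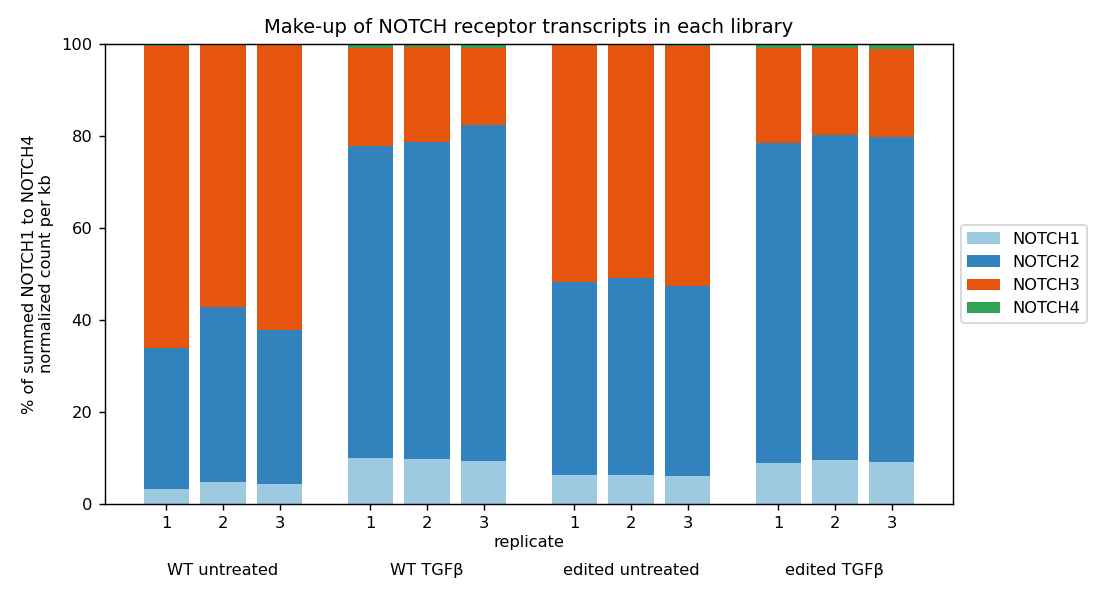
Share (%) of each receptor in the summed normalized count per kb of NOTCH1 to NOTCH4, 1 stacked bar per library; replicate numbers and groups stand below the bars. NOTCH3 holds 50.7% to 65.8% in the 6 untreated libraries and 16.9% to 21.3% in the 6 TGFβ libraries, and NOTCH2 holds 67.7% to 73.1% in the latter.

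Among the ligands, JAG1 (chr20:10637684-10673999, minus strand) supplied nearly all of the RNA, with 97.5% to 98.9% of the summed level per kb of JAG1, JAG2 and DLL1 in the group means. Wild type had normalized counts of 51337, 51453 and 50934 without TGFβ and 56396, 63322 and 68919 with it. For edited cells the values were 39079, 40401 and 39921 without TGFβ and 65116, 71088 and 68126 with it. The untreated edited libraries were the lowest of the 12, and the treated libraries lay above the untreated ones in both lines. JAG1 rose 1.23-fold in wild type (log2 fold change 0.29 ± 0.07, adjusted p = 0.0016) and 1.71-fold in the edited line (0.77 ± 0.07, adjusted p = 4.9e-08).

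JAG2 (chr14:105140981-105168824, minus strand) encodes the second JAG ligand. The wild-type libraries gave normalized counts of 525, 435 and 495 without TGFβ and 1152, 987 and 1067 with it. The edited libraries held 332, 255 and 332 without TGFβ and 1028, 972 and 844 with it. Treated and untreated libraries did not overlap in either line. JAG2 rose 2.20-fold in wild type (1.14 ± 0.12, adjusted p = 5e-07) and 3.09-fold in the edited line (1.63 ± 0.12, adjusted p = 5.7e-09).

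DLL1 (chr6:170282206-170306565, minus strand), a Delta-type ligand, was represented by 0 to 18 reads per library. Normalized counts in wild type were 5.98, 7.41 and 2.15 without TGFβ and 14.3, 11.5 and 15.1 with it. Edited libraries showed 10.3, 0 and 4.09 without TGFβ and 15.7, 8.61 and 15.9 with it. The groups overlapped in the edited line and not in wild type. The log2 fold change was 1.35 ± 0.74 in wild type (adjusted p = 0.12) and 1.85 ± 0.74 in the edited line, where it passed the test (adjusted p = 0.038). DLL1 entered the tests mainly through its TGFβ libraries, so the call in the edited line is not independent of the filter. Leaving out replicate 2 of the untreated edited line ended that call (0.88, adjusted p = 0.23), as did leaving out replicate 1 or 3 of the edited line with TGFβ (1.72 and 1.71, adjusted p = 0.097 and 0.10). The call also ended with edgeR (1.42, adjusted p = 0.10), DESeq2 (1.48, adjusted p = 0.077), quantile normalization (1.60), no filter and a fit of the compared groups alone. The wild-type change passed without replicate 2 of the untreated edited line (adjusted p = 0.040). DLL1 shares 15863 bases with FAM120B on the opposite strand (mean normalized count 2750), and the sources used here do not say if counting used strand, so these few reads cannot be assigned to DLL1 with certainty.

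HEY1 (ENSG00000164683.16) encodes a repressor that NOTCH induces in many cell types and that other signals can induce as well. Its normalized counts in wild type were 47.9, 56.0 and 49.4 without TGFβ and 500, 473 and 464 with it. Libraries from edited cells held 38.2, 67.6 and 60.5 without TGFβ and 443, 454 and 564 with it. The gap between treated and untreated libraries was far larger than the spread within any group. HEY1 rose 9.37-fold in wild type (log2 fold change 3.21 ± 0.19, adjusted p = 4.9e-10) and 8.79-fold in the edited line (3.14 ± 0.19, adjusted p = 5.4e-10).

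HES1 (chr3:194136145-194138732, plus strand), the repressor whose promoter is printed above, did not follow HEY1. Its normalized counts in wild type were 6609, 7188 and 6641 without TGFβ and 6230, 6283 and 5393 with it. The edited line gave 4727, 5433 and 5552 without TGFβ and 7216, 7043 and 6903 with it. TGFβ libraries were lower than untreated ones in wild type and higher than untreated ones in the edited line, with no overlap in either. HES1 fell by 0.19 ± 0.07 on the log2 scale in wild type (adjusted p = 0.031) and rose by 0.43 ± 0.07 in the edited line (adjusted p = 7.6e-05). The wild-type call ended when replicate 2 of the untreated (-0.15, adjusted p = 0.12) or replicate 3 of the treated wild-type libraries (-0.12, adjusted p = 0.14) was left out. It also ended with quantile normalization (-0.10), TMM scaling (-0.17), no filter or a fit of the compared groups alone.

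HEYL (chr1:39624153-39639945, minus strand) encodes another repressor of the HEY family. Its normalized counts in wild type were 902, 946 and 924 without TGFβ and 763, 818 and 774 with it. Edited cells showed 859, 920 and 923 without TGFβ and 828, 776 and 845 with it. Groups did not overlap in either line, but the difference was small. HEYL fell by 0.24 ± 0.08 on the log2 scale in wild type (adjusted p = 0.014). In the edited line its log2 fold change of -0.14 ± 0.08 did not pass the test (adjusted p = 0.12). It passed with equal totals (-0.21), quantile normalization (-0.27) and edgeR (-0.18).

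The markers of other cell types were set beside these changes. Of the 8 mural markers (PDGFRB, RGS5, CSPG4, MCAM, KCNJ8, ABCC9, NDUFA4L2 and ACTA2), 5 rose and 1 fell in wild type with TGFβ. Their summed level in wild type was 1372 to 1568 without and 2547 to 2696 with TGFβ. Among all genes tested, 30.8% rose and 30.9% fell in that comparison. Fibroblast markers (PDGFRA, DCN, LUM, THY1, COL1A2 and FAP) rose for 5 of 5 tested in wild type. The sum of the list was 123 to 165 without and 1142 to 1404 with TGFβ. COL1A2 stayed below the filter value in every wild-type library (1.21 ± 1.07 without and 4.99 ± 1.53 with TGFβ). It entered the tests only through edited libraries. FAP entered them mainly through its TGFβ libraries. Among the mural markers, CSPG4 entered the tests only through its TGFβ libraries and a single untreated edited library. Edited cells showed a rise for 4 of the 5 tested fibroblast markers. There 5 of the 8 mural markers rose and 2 fell, beside 32.1% and 30.7% of all genes. RGS5 was at 449 ± 45.2 without and 506 ± 45.8 with TGFβ in wild type. In edited cells it was at 683 ± 27.8 and 397 ± 40.7. NDUFA4L2 was at 159 ± 33.4 without and 92.1 ± 16.5 with TGFβ in wild type. In edited cells it was at 301 ± 40.2 and 100 ± 13.8. In the edited line the mural sum was 1923 to 2023 without and 2281 to 2574 with TGFβ, and the fibroblast sum was 198 to 259 without and 1752 to 2080 with it. The part of such markers in the changes of NOTCH3, JAG1 or HEY1 was not tested.

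**Figure D3:**
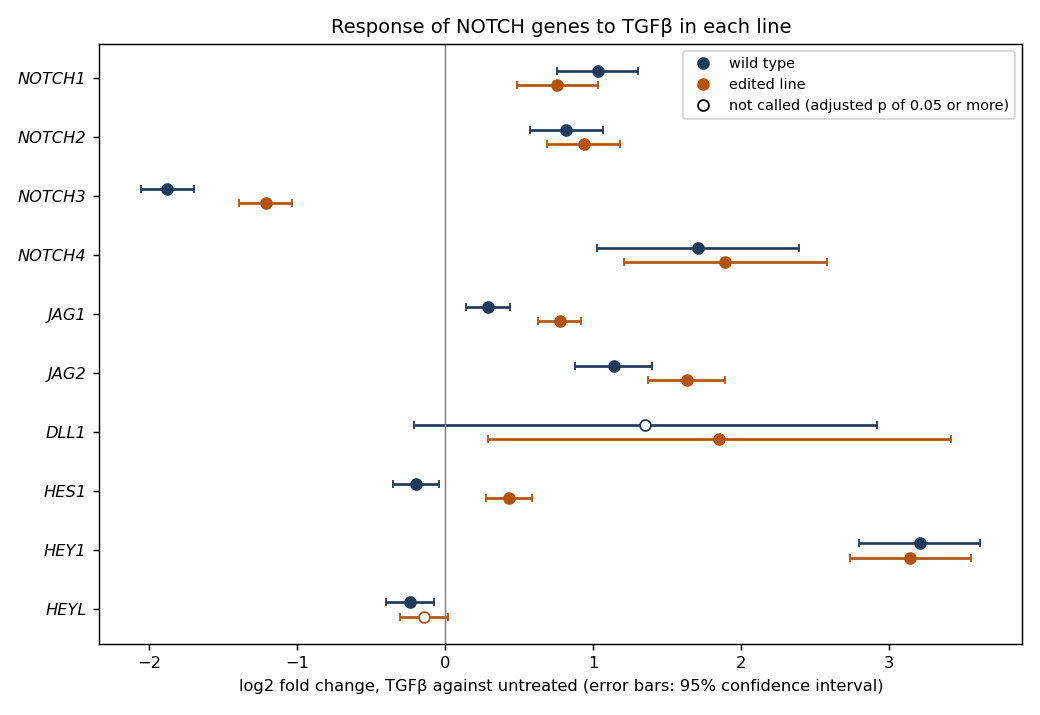
Log2 fold change (on the log2(value + 1) scale) between TGFβ-treated and untreated cells for each NOTCH gene in wild type and in the edited line, with 95% confidence intervals; open symbols did not pass the test. NOTCH3 lies at -1.88 and -1.21, HEY1 at 3.21 and 3.14, and HES1 lies on either side of 0. DLL1 entered the tests mainly through its TGFβ libraries.

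The lines were then compared with each other before TGFβ. Of the 10 members, 4 were lower and 1 was higher in the edited line, against 17.5% and 14.3% of all genes tested. NOTCH3, JAG1, JAG2 and HES1 were the lower ones and NOTCH1 the higher one. The median log2 fold change was -0.20 over the members and 0.00211 over all genes tested. This comparison shares its untreated libraries with those on TGFβ, so the values of both are given side by side and are not independent.

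Without TGFβ, NOTCH3 had a mean of 7037 ± 731 in wild type and of 5176 ± 434 in edited cells, and the libraries did not overlap. It was lower by a log2 fold change of -0.44 ± 0.08 (adjusted p = 0.00078). JAG1 was at 51241 ± 272 and 39800 ± 669 in the same groups (-0.36 ± 0.07, adjusted p = 0.00074). JAG2 was at 485 ± 46.0 and 306 ± 44.3 (-0.67 ± 0.12, adjusted p = 0.00056), the largest difference among the members that passed. HES1 was at 6813 ± 326 and 5237 ± 446 (-0.38 ± 0.07, adjusted p = 0.00088). For each of these 4 genes all 3 edited libraries lay below all 3 wild-type libraries. Mural markers, among which NOTCH3 is often expressed, summed to 1372 to 1568 in untreated wild type and 1923 to 2023 in the untreated edited line, with 3 of 8 higher and 1 lower.

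NOTCH1 was at 515 ± 94.2 in wild type and 683 ± 48.8 in edited cells, with no overlap (0.42 ± 0.13, adjusted p = 0.021). The wild-type spread came mostly from replicate 1, and without it the log2 fold change was 0.26 (adjusted p = 0.12). The call was also lost without replicate 1 (0.37, adjusted p = 0.081) or replicate 3 (0.41, adjusted p = 0.057) of the untreated edited line, and in a fit of the compared groups alone (adjusted p = 0.060). NOTCH2, NOTCH4, DLL1, HEY1 and HEYL did not pass, with log2 fold changes of 0.12, 0.26, -0.56, 0.08 and -0.04. The intervals for NOTCH4 and DLL1 were wide, since both rested on few reads.

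With TGFβ the lines differed in fewer members. Of the 10, 1 was higher and 0 were lower in the edited line, against 7.38% and 4.32% of all genes tested by limma. The count of lower members was also 0 at an unadjusted p under 0.05 and with edgeR and DESeq2. HES1 was the higher one, at 5969 ± 499 in wild type and 7054 ± 157 in the edited line (0.24 ± 0.07, adjusted p = 0.041), with no overlap. The call did not hold when any one library of the edited line with TGFβ, replicate 2 or 3 of wild type with TGFβ, or, among untreated libraries, replicate 1 or 3 of wild type or the edited replicate 2 was left out. In those fits the adjusted p was 0.052 to 0.12 and the log2 fold change 0.17 to 0.28. It also ended with equal totals, quantile normalization and TMM (0.21, 0.20 and 0.22). NOTCH3 was at 1912 ± 141 and 2228 ± 37.6 with no overlap, and its log2 fold change of 0.22 ± 0.08 did not pass (adjusted p = 0.10). NOTCH2 (0.24 ± 0.12, adjusted p = 0.21) and JAG1 (0.12 ± 0.07, adjusted p = 0.30) passed when replicate 3 of wild type with TGFβ was left out (0.40 and 0.19). That library had the highest NOTCH2 and JAG1 and the lowest HES1 of its group.

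The last question was whether the response to TGFβ itself differed between the lines, tested as the interaction of line and treatment. Of the 10 members, 3 had a higher response in the edited line and 0 a lower one, against 10.6% and 6.02% of all genes tested by limma. The count with a lower response was also 0 at an unadjusted p under 0.05 and with edgeR and DESeq2. NOTCH3 fell less in edited cells, with a log2 difference of 0.66 ± 0.12 (adjusted p = 0.0012). JAG1 rose more, by 0.48 ± 0.10 (adjusted p = 0.0028). HES1 went down in wild type and up in the edited line, a difference of 0.63 ± 0.10 (adjusted p = 0.00072). These 3 calls held in every alternative that was run. For NOTCH3 and JAG1 the edited line lay below wild type without TGFβ (log2 differences of -0.44 and -0.36), and its differences with TGFβ, 0.22 and 0.12, did not pass the test.

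JAG2 had an interaction of similar size, 0.49 ± 0.17, that did not pass (adjusted p = 0.062). It passed with the replicate block (adjusted p = 0.027), with DESeq2 (adjusted p = 0.027), and when replicate 2 of the untreated (0.57) or replicate 1 of the treated wild-type libraries (0.55) was left out. HEY1, with the largest response of the members, had an interaction of -0.06 ± 0.27, whose interval (-0.64 to 0.52) leaves room for a difference of moderate size. NOTCH1 (-0.27 ± 0.18), NOTCH2 (0.12 ± 0.16), NOTCH4 (0.18 ± 0.45), DLL1 (0.50 ± 1.04) and HEYL (0.09 ± 0.11) did not pass either.

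**Figure D4:**
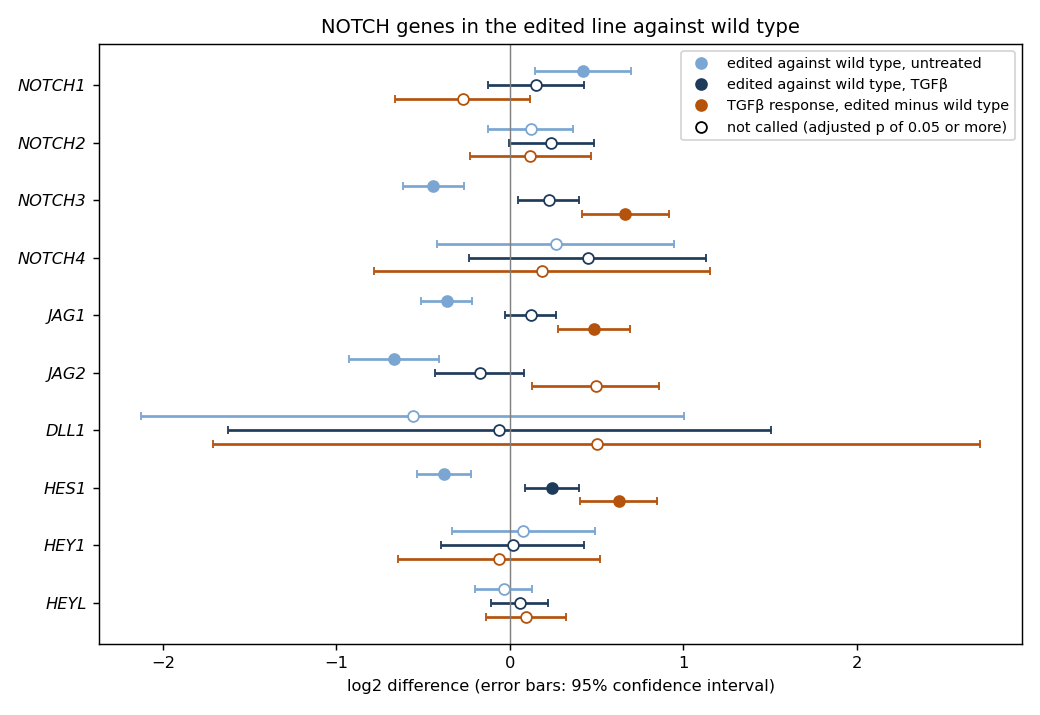
Log2 difference of the edited line from wild type without TGFβ, the same with TGFβ, and the difference of the TGFβ responses (edited minus wild type), with 95% confidence intervals, for each NOTCH gene; open symbols did not pass the test. For NOTCH3, JAG1 and HES1 the untreated difference lies below 0 (-0.44, -0.36 and -0.38) and the difference of the responses above 0 (0.66, 0.48 and 0.63).

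The other genes of the pathway were taken from 6 lists with 65 genes, of which 62 were tested. The lists were chosen with earlier results of these data known, so their shares describe these genes and are not independent support for a change of the pathway. With TGFβ, 34 rose and 13 fell in wild type, which is 54.8% and 21.0% of those tested, beside 30.8% and 30.9% of all genes. In the edited line 31 of the 62 rose and 12 fell, beside 32.1% and 30.7% of all genes. Their median log2 fold change was 0.29 and 0.28.

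Between untreated lines 15 were higher and 8 lower in the edited line (24.2% and 12.9%), beside 14.3% and 17.5% of all genes. The higher count was 9 without replicate 1 of untreated wild type and 8 when replicate 1 of the untreated edited line was left out. The lower count was 5 without replicate 3 of untreated wild type, or without replicate 1 or 3 of the untreated edited cells. With TGFβ 5 were higher and 2 lower (8.06% and 3.23%), beside 7.38% and 4.32% of all genes. Those counts were 11 and 4 without replicate 3 of wild type with TGFβ, 3 and 1 without replicate 1 of the edited line with TGFβ, and 2 and 1 without its replicate 3, and the lower count was 1 without replicate 2 of wild type with TGFβ. A fit of the compared groups alone gave 3 and 1. The interaction was called higher for 8 and lower for 6 (12.9% and 9.68%), beside 10.6% and 6.02% of all genes. Its higher count was 3 to 5 without replicate 1 or 3 of untreated wild type, replicate 2 of wild type with TGFβ, any untreated edited library or replicate 3 of the edited line with TGFβ. With equal totals the interaction counts were 5 and 10, and with quantile normalization the higher count was 3.

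Glycosyltransferases modify the extracellular part of the receptors. Of 8 tested, 6 rose and 0 fell in wild type and 5 rose and 0 fell in the edited line by limma. Over all genes tested, 30.8% rose and 30.9% fell in wild type, and 32.1% and 30.7% in the edited line. Both counts of 0 stayed at 0 at an unadjusted p under 0.05 and with DESeq2, while in the edited line edgeR and equal totals gave 2 lower, and quantile normalization or leaving out replicate 1 of wild type with TGFβ gave 1. GXYLT2, a xylosyltransferase that extends O-glucose on NOTCH repeats, had means of 158 ± 16.8 and 3347 ± 286 in untreated and treated wild type and of 170 ± 11.7 and 3469 ± 153 in the edited line. It rose 21.2-fold in wild type (log2 fold change 4.40 ± 0.10, adjusted p = 2.5e-15). LFNG, a Fringe enzyme that alters how receptors respond to JAG and DLL ligands, was at 73.3 ± 15.5 and 1045 ± 69.8 in wild type and at 84.5 ± 17.3 and 1013 ± 192 in the edited line. It rose 14.3-fold in wild type (3.84 ± 0.19, adjusted p = 3.1e-11). MFNG, a related enzyme, rose by 1.94 ± 0.17 in wild type and by 1.00 ± 0.17 in the edited line, and the difference of the responses passed (-0.95 ± 0.25, adjusted p = 0.015). GXYLT1, the partner of GXYLT2 at the same step, was lower in the edited line with TGFβ by -0.23 ± 0.06 (adjusted p = 0.024). It did not hold without replicate 2 of wild type with TGFβ (-0.22) or replicate 1 or 3 of the edited line with TGFβ (-0.21 and -0.25), or with only the compared groups fitted.

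The cleavage enzymes rose for 5 of 9 in each line and fell for 1 of 9 in wild type and for 0 of 9 in the edited line by limma. All genes tested rose for 30.8% and fell for 30.9% in wild type, and for 32.1% and 30.7% in the edited line. The count of 0 enzymes was also 0 at an unadjusted p under 0.05, with edgeR and with DESeq2. It was 1 with quantile normalization and with only the compared groups fitted. FURIN, the convertase that cuts receptors on their way to the surface, was at 9564 ± 357 and 35067 ± 592 in wild type and at 19013 ± 1096 and 40429 ± 2372 in the edited line. It rose with TGFβ in both, and it was 1.99-fold higher in the untreated edited line (0.99 ± 0.06, adjusted p = 1.3e-08). Its response was smaller there, with an interaction of -0.79 ± 0.09 (adjusted p = 2.8e-05). ADAM10, the protease that cuts ligand-bound receptors, was at 41345 ± 1696 and 48622 ± 4120 in wild type and at 29283 ± 1800 and 49362 ± 2080 in the edited line. It was lower in the untreated edited line (-0.50 ± 0.07, adjusted p = 6e-05) and its response was larger there (0.52 ± 0.10, adjusted p = 0.0020).

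Of the nuclear complex and its corepressors, 10 of 17 rose and 5 fell in wild type, and 9 rose and 5 fell in the edited line. Beside them, 30.8% of all genes rose and 30.9% fell in wild type, and 32.1% and 30.7% in the edited line. RBPJ, the DNA-binding partner, rose by 0.34 ± 0.07 in wild type (adjusted p = 0.00069) and 0.42 ± 0.07 in the edited line (adjusted p = 0.00011). MAML2, a coactivator, had means of 120 ± 9.86 and 984 ± 165 in wild type and of 108 ± 15.6 and 1428 ± 122 in the edited line. It rose by 3.02 ± 0.14 and 3.72 ± 0.14 on the log2 scale. Edited cells had the larger response, by 0.70 ± 0.20 (adjusted p = 0.026), a call that ended when any one of 6 libraries was left out (adjusted p = 0.052 to 0.081). MAML2 was higher in the edited line with TGFβ (0.55 ± 0.14, adjusted p = 0.020), but not without replicate 1 of wild type with TGFβ (0.40) or replicate 3 of the edited line with TGFβ (0.48). TLE4, a Groucho-type corepressor, fell by 1.35 ± 0.08 in wild type and by 0.99 ± 0.08 in the edited line, and untreated edited cells had less of it, by -0.75 ± 0.08 (adjusted p = 2.4e-06). With TGFβ it was lower there by -0.39 ± 0.08 (adjusted p = 0.0033).

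Other targets of the pathway changed in both directions. Of 7 tested, 4 rose and 2 fell in wild type, and 3 rose and 2 fell in the edited line. The shares over all genes were 30.8% higher and 30.9% lower in wild type, and 32.1% and 30.7% in the edited line. HEY2, a close relative of HEY1, was at 322 ± 28.9 and 104 ± 32.7 in untreated and treated wild type and at 334 ± 62.4 and 154 ± 18.6 in the edited line. It fell by 1.66 ± 0.20 and 1.10 ± 0.20, while HEY1 rose in the same libraries. HES4 was at 2292 ± 115 and 801 ± 179 in wild type and at 3670 ± 43.3 and 915 ± 36.6 in the edited line, and fell by 1.54 ± 0.12 and 2.00 ± 0.12. It was higher in the untreated edited line (0.68 ± 0.12, adjusted p = 0.00043), where HES1 was lower. The HES4 interaction of -0.46 ± 0.17 did not pass (adjusted p = 0.076). It passed with edgeR (-0.51, adjusted p = 0.035), DESeq2 (-0.49, adjusted p = 0.023) and equal totals (-0.52), and when replicate 3 of wild type with TGFβ was left out (-0.65). With TGFβ, HES4 differed between the lines by 0.22 ± 0.12 (adjusted p = 0.28), which passed when replicate 1 of wild type with TGFβ was left out (0.35). BHLHE41 was also higher in the untreated edited line (1.04 ± 0.23, adjusted p = 0.0022). Its means were 45.8 ± 18.3 and 261 ± 35.8 in untreated and treated wild type and 90.8 ± 7.21 and 385 ± 49.2 in the edited line. NRARP, a feedback inhibitor that NOTCH induces, rose by 0.84 ± 0.17 in wild type (adjusted p = 0.00051) and 0.51 ± 0.17 in the edited line (adjusted p = 0.018). Its call in the edited line was lost without replicate 2 or 3 of the untreated group (0.48 for each) or replicate 2 of the TGFβ group (0.36), and with quantile normalization (0.31). Without replicate 3 of the untreated group 1 of the 7 targets rose in the edited line instead of 3. NRARP was higher in the untreated edited line (0.54 ± 0.17, adjusted p = 0.025), but not when replicate 1 of either untreated group was left out (0.44 for wild type, 0.49 for the edited line) or with quantile normalization (0.44).

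Of the endocytosis and turnover genes, 7 of 16 rose and 4 fell in wild type, and 7 rose and 5 fell in the edited line. Over all genes, 30.8% rose and 30.9% fell in wild type, and 32.1% and 30.7% in the edited line. MIB2, a ubiquitin ligase that acts on ligands, was at 773 ± 45.0 and 1309 ± 108 in wild type and at 1214 ± 21.6 and 1218 ± 39.6 in the edited line. It rose by 0.76 ± 0.08 in wild type (adjusted p = 3.8e-07), its log2 fold change in the edited line was 0.0035 (adjusted p = 0.97), and the interaction passed (-0.75 ± 0.11, adjusted p = 0.00032). DTX2, a Deltex ubiquitin ligase, fell by 0.92 ± 0.07 in wild type and by 0.36 ± 0.07 in the edited line (interaction 0.56 ± 0.09, adjusted p = 0.00079). DTX3L, another Deltex protein, was higher in the edited line with TGFβ (0.46 ± 0.08, adjusted p = 0.0016).

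Of the 7 other ligands 5 were tested, and EGFL7 had the highest level, with group means of 820 to 1288. By limma 2 rose and 1 fell in wild type, beside 30.8% and 30.9% of all genes. In the edited line 2 rose and 0 fell by limma, beside 32.1% and 30.7% of all genes. That count of 0 was the same at an unadjusted p under 0.05, with edgeR and with DESeq2. The 2 that rose in the edited line became 1 with equal totals, quantile normalization, or replicate 1 or 2 of its untreated or 1 or 3 of its TGFβ libraries left out. DLL4 had means of 53.5 ± 19.6 and 17.8 ± 3.76 in wild type and of 33.0 ± 6.48 and 26.6 ± 12.3 in the edited line. It fell by 1.50 ± 0.38 in wild type (adjusted p = 0.0030). Its log2 fold change of -0.39 ± 0.38 in the edited line did not pass, and the interaction (1.11 ± 0.54, adjusted p = 0.19) did not either. DLL3, a ligand that inhibits signalling in the same cell, was at 184 ± 22.9 and 137 ± 13.9 in wild type and at 129 ± 11.5 and 160 ± 38.1 in the edited line. It was lower in the untreated edited line (-0.50 ± 0.18, adjusted p = 0.046), a call that 8 of the 12 single left-out libraries ended, with log2 fold changes of -0.40 to -0.56, and that edgeR, equal totals, the replicate block (adjusted p = 0.054) and no filter ended too. The TGFβ change of DLL3 in wild type, -0.42 ± 0.18 on the log2 scale, missed the threshold (adjusted p = 0.058). It passed with DESeq2, quantile normalization (-0.65), the filter of 50, and replicate 1 or 2 of the edited line with TGFβ left out. The DLL3 interaction of 0.70 ± 0.26 (adjusted p = 0.079) passed with DESeq2 (0.72) and without replicate 1 of the edited line with TGFβ (0.83). EGFL7, a secreted protein that binds receptors, was higher in the edited line with TGFβ (0.42 ± 0.12, adjusted p = 0.025). This was lost without replicate 2 or 3 of wild type with TGFβ (0.43 and 0.31) or replicate 1 or 3 of the edited line with TGFβ (0.41 and 0.35), and in a fit of the compared groups alone.

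**Figure D5:**
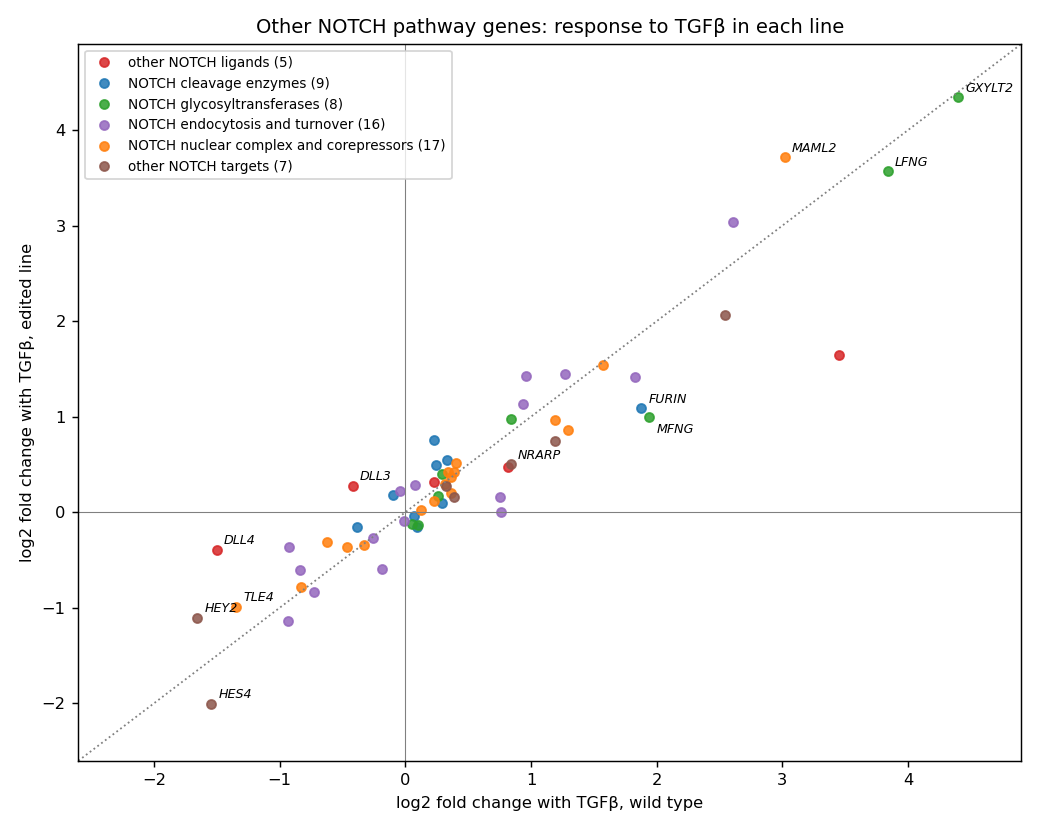
Log2 fold change with TGFβ in wild type (x axis) and in the edited line (y axis) for the 62 tested genes of 6 lists of other NOTCH pathway genes; each dot is a gene, colours are lists, and the dotted line marks equal responses. GXYLT2 lies at 4.40 and 4.34 and LFNG at 3.84 and 3.57, close to the line, while FURIN (1.87 and 1.09) and MFNG (1.94 and 1.00) lie below it.

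For the receptor, the ligand and the target with the highest mean, the 3 genes with the most similar values were picked among 13582 tested genes with a mean of at least 100, by Pearson r of log2(value + 1) over 12 libraries. These values describe libraries that share treatment and line, and carry no test. PLCXD2 (r = 0.995), VCAN (0.995) and TCP11L1 (0.991) were most like NOTCH2. VCAN, which encodes a matrix proteoglycan, had means of 32735 ± 3303 and 99841 ± 34563 in wild type and of 40557 ± 4099 and 133569 ± 18611 in the edited line, with a wide spread in treated wild type, as NOTCH2 had. SRGAP2 (0.990), FAM102B (0.989) and PRRG1 (0.988) were most like JAG1, and each was lowest in the untreated edited line. HES1 had less similar neighbours, PTPN18 (0.915), CTPS2 (0.902) and RAB27A (0.899). RAB27A, a GTPase of secretory vesicles, was at 2443 ± 64.1 and 2271 ± 70.5 in wild type and at 1878 ± 88.2 and 2422 ± 53.2 in the edited line, the same order of untreated groups as HES1.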

How the data were processed

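RNA-seq of 12 A549 libraries (4 groups of 3) was analysed. The authors deposited a signal of normalized counts per gene. The submitters' processing notes name GRCh38.p14, DESeq2, featureCounts, HISAT2 and StringTie, and the sources used here do not state versions, annotation or strand. Values were whole multiples of a step per library, which gave whole reads for 100% of values (tolerance 0.01), in all 84210775 to 111141708 per library.

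Tested genes (20456 of 58830 entries) reached a value of 10 in 3 or more libraries. Their log2(value + 1) went into limma-trend (limma 3.58.1, R 4.3.3). A single fit of the 4 group means used all 12 libraries. The 5 comparisons were two-sided, with Benjamini-Hochberg adjustment over all genes tested and a threshold of 0.05. Log2 fold changes are differences of mean logs with a pseudocount of 1; for low genes they depend on it and can lie above or below the log2 ratio of means. Values after ± are SE for log2 fold changes and SD for means and shares, with n = 3. Folds are ratios of group means.

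The members and lists were chosen with earlier results of these data known. All members are named with any result. Of 6 other lists, up to 3 called genes each way per comparison with a mean of at least 100 are named, and DLL3, DLL4, RBPJ, NRARP and HES4 always. Alternatives were other pseudocounts, filters and scalings, robust variance, a replicate block, the compared groups alone, each library left out, and edgeR 4.0.16 and DESeq2 1.42.0 on the recovered reads; receptor shares with other lengths were added after the data were seen. The fit was also run on simulated reads with the same dispersion for all genes and few changed genes. That setting differs from these data, so it does not check the calls given here. The labels do not say whether replicate numbers pair the samples, and the main fit treated them as unpaired. Positions and lengths are from GENCODE 29 (GRCh38), promoters from RefSeq. Symbols turned into dates (28 entries) are not named. No HEY1 sequence is shown, and the DLL1 promoter was not used here. The list of TGFβ response markers is not reported here.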

Additional observations from a re-analysis of the deposited data

Results flagged for a closer look

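The response to TGFβ differed between the edited line and wild type, by the interaction in limma, for 3 members. The difference was 0.66 on the log2 scale for NOTCH3, which fell less in the edited line, 0.48 for JAG1 and 0.63 for HES1. Of the other named genes of the pathway, MAML2 (0.70, adjusted p = 0.026) and ADAM10 (0.52, adjusted p = 0.0020) rose more in the edited line. DTX2 (0.56, adjusted p = 0.00079) and TLE4 (0.36, adjusted p = 0.033) fell less there. The MAML2 call ended in some fits with a library left out. The TLE4 interaction was not run in the alternatives. The response was lower in the edited line for FURIN (-0.79, adjusted p = 2.8e-05), MFNG (-0.95, adjusted p = 0.015) and MIB2 (-0.75, adjusted p = 0.00032). Samples that stand far from their group were not looked for, since groups of 3 are too small for that rule.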

How the results depend on the processing

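Members lower with TGFβ in the edited line numbered 2 with equal totals, quantile normalization and edgeR, where HEYL passed. Members higher in the untreated edited line numbered 0 when only the compared groups were fitted and 0 to 1 with a library left out. With TGFβ, members higher in the edited line numbered 0 with no filter, equal totals, quantile normalization, TMM and only the compared groups, and 0 to 2 with a library left out. In that comparison, genes higher over all tested numbered 859 with only the compared groups and 896 to 2249 with a library left out. Genes lower numbered 1355 with equal totals, 1345 with quantile normalization, 324 with only the compared groups and 417 to 1580 with a library left out. With the replicate block, the interaction was called higher for 4 members (JAG2 added) and, over all genes, for 2527 higher and 1460 lower. Same-numbered samples had correlated deviations of -0.03 to 0.13 (over 0.1 in 2 of 18 pairs), and 5 of 12 libraries correlated best with their own number. Directions turned for uncalled values only. In the untreated edited line HEY1 was -0.0217 and RBPJ 0.00752 with quantile normalization. With TGFβ, HEY1 was -0.0169 with equal totals, -0.0283 with quantile normalization and -0.00848 with TMM. The RBPJ interaction was -0.00234 with quantile normalization. With a library left out, the untreated difference of the lines ran from -0.0757 to 0.57 for NOTCH4, -1.34 to 0.41 for DLL1 and -0.0829 to 0.32 for HEY1. With TGFβ it ran from -0.20 to 0.21 for DLL1, -0.0938 to 0.0809 for HEY1 and -0.0439 to 0.12 for RBPJ. The interaction ran from -0.0315 to 0.28 for NOTCH2, -0.12 to 0.52 for NOTCH4, -0.48 to 1.27 for DLL1, -0.30 to 0.0993 for HEY1 and -0.00679 to 0.16 for RBPJ. The median of all genes moved by over 0.1 only for TGFβ in the edited line with quantile normalization (by -0.11). The cause of these changes was not tested. NOTCH4 and DLL1 are limited by their few reads.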
